A study of Mus musculus with 7 samples.

Results

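The basement membrane and integrin genes are 34 protein-coding mouse genes, chosen by name: 6 type IV collagen genes, 10 laminin genes, 4 genes for nidogens, perlecan and agrin, 8 integrin alpha genes and 6 integrin beta genes, of 21755 protein-coding genes on the autosomes and the X chromosome. For each gene, the chromatin examined was the annotated gene body plus 50 kb on each side, on the mm10 build. A binding site of estrogen receptor beta (ERβ) was a 200-bp window in which the signal of at least 2 of 3 ChIP libraries exceeded 4 times the mean of 2 input libraries, with the input floored at its genome mean. By this rule, 10 of the 34 genes had a site and 24 had none. The 10 genes were Lama2, Lama3, Lama5, Lamb1, Lamc3, Hspg2, Itga2, Itga6, Itga9 and Itgb3, and 19 sites lay in their intervals.

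The data are chromatin immunoprecipitation sequencing (ChIP-seq) of ERβ, an estrogen-activated transcription factor encoded by Esr2, in the mouse ovary. Each of the 3 ERβ ChIP samples and 2 input samples (chromatin that was not immunoprecipitated) came from female C57BL/6J mice with intact Esr2, without treatment, and the antibody was PPZ0506. The study's methods state that each ChIP replicate pooled ovaries of several young to adult mice that were not collected at a set stage of the estrus cycle, and that cells were passed through a strainer to remove connective tissue. A further 2 samples of ovaries lacking ERβ were not analysed here, so no value below separates the antibody's ERβ signal from other chromatin it may capture. The whole ovary was assayed, so a site bound in a few cells and a site bound weakly in many cells cannot be told apart. ChIP-seq holds no expression level, so the tissue was not checked against expressed markers.

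A basement membrane is a thin sheet of extracellular matrix on which epithelial cells rest. Laminin trimers and a type IV collagen network form its main layers, nidogen and the heparan sulfate proteoglycans perlecan and agrin join them, and integrins, receptors made of an alpha and a beta chain, tie cells to it. In the ovary, a basement membrane surrounds each follicle and separates its granulosa cells, where ERβ is abundant, from the theca and its vessels. ERβ binds DNA as a dimer at the estrogen response element (ERE), whose arms are inverted copies of GGTCA with 3 bases between them.

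Sequences of the strongest sites are shown because most of them carried an imperfect ERE. The element searched was GGTCANNNTGACC, which reads the same on both strands, and up to 2 of its 10 fixed bases could differ. Of the 12 sites with the highest fold, 11 had such an element. The 200 bp of the 6 with the highest fold among these 11 follow, from the GRCm38 reference (mm10), with the element in capitals.

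Itga9, chr9:118867191-118867390, plus strand: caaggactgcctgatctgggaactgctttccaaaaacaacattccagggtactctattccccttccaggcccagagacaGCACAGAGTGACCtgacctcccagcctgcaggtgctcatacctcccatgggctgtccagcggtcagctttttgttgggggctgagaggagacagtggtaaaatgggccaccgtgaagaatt
Lamc3, chr2:31995841-31996040, plus strand: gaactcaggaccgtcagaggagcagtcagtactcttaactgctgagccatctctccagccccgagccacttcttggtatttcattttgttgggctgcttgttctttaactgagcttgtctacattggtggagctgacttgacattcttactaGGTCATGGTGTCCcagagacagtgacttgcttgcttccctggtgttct
Itgb3, chr11:104618721-104618920, plus strand: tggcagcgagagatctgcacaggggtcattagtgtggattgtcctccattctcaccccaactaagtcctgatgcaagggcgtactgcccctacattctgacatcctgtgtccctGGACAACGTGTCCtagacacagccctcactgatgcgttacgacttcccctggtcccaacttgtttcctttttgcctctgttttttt
Lamb1, chr12:31268411-31268610, plus strand: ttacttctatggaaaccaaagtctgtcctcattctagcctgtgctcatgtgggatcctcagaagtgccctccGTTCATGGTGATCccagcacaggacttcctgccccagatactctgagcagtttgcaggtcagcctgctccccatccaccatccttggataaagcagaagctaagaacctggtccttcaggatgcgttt
Itga6, chr2:71745161-71745360, plus strand: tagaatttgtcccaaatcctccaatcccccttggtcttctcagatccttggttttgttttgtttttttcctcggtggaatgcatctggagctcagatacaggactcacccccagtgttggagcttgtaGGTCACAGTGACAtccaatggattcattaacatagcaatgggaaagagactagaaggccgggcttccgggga
Itgb3, chr11:104592451-104592650, plus strand: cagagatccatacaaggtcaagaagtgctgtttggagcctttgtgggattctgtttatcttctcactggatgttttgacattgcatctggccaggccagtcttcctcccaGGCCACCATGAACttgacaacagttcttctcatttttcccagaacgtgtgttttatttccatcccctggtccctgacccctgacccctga

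Counting from 1 at the first base of the element on the plus strand, the Itga9 element departed from the searched element by G2C and T3A, the Itgb3 element on the third line by T3A and A11T, and the Lamb1 element by G2T and C12T. The Lamc3 element had A11T as its one departure and the Itga6 element had C13A. For the next 5 sites by fold, the element alone is given, followed by that of the Lama2 site, which was chosen after its values were seen because it matched in full. Capitals here mark the fixed bases that match, and lower case marks the spacer and the mismatches.

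Lama5, chr2:180271059-180271071, plus strand: GGTCAggagcACC
Itgb3, chr11:104558216-104558228, plus strand: GGTCAgagcGtCC
Lamc3, chr2:31954768-31954780, plus strand: GGTCAcgtgGgCC
Lama5, chr2:180215159-180215171, plus strand: aGgCAgccTGACC
Hspg2, chr4:137484880-137484892, plus strand: GGTCAgtcTGctC
Lama2, chr10:27629857-27629869, plus strand: GGTCAaatTGACC

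An ERE with at most 2 mismatches was present in 15 of the 19 sites (78.9%), in 67.9% of all 4869 sites on the autosomes and the X chromosome, and in 6.68% of all 200-bp tiles of these chromosomes. At most 1 mismatch was found in 3 sites (15.8%), those of Lamc3, Itga6 and Lama2 named above, against 33.0% of all sites and 0.529% of tiles. A full match was found in 1 site (5.26%), against 6.33% of all sites. The sites near basement membrane and integrin genes thus held an element about as often as other sites, and with 3 close matches among 19 the share of close elements was lower. This difference was not tested. In 9 of the 15 sites the element's middle lay within 25 bp of the site's centre. When each library was called alone, which admits more and weaker windows, the share with an element was 70.0%, 60.0% and 63.6% in ERβ ChIP 1, 2 and 3.

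Motifs of other ovarian factors were searched without mismatch on both strands of the same 200 bp. Their shares are thus not comparable with that of the ERE, for which mismatches were allowed. GATA motifs (AGATAA or TGATAA) were in 6 of 19 sites (31.6%), near the 29.7% of all sites and the 24.1% of tiles. The NR5A motif (TCAAGGTCA or CCAAGGTCA), named for the family of LRH-1 and SF-1, was in 1 site, in intron 16 of Lama5, where it shared bases with the ERE. Its share was 7.15% of all sites and 0.693% of tiles. By its own motif search, the study reported NR5A about as often as the ERE among its sites. It lists NR5A at a site in intron 2 of Aif1l, near Lamc3, where no exact match was found here. The low share here is therefore of exact matches alone. An AP-1 motif (TGACTCA or TGAGTCA) was in 1 site, near Itga2, against 6.63% of all sites and 3.11% of tiles. A FOXO motif (TGTTTAC) was in 1 site, the same Lama5 site, against 4.76% of all sites and 2.98% of tiles.

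**Figure D1:**
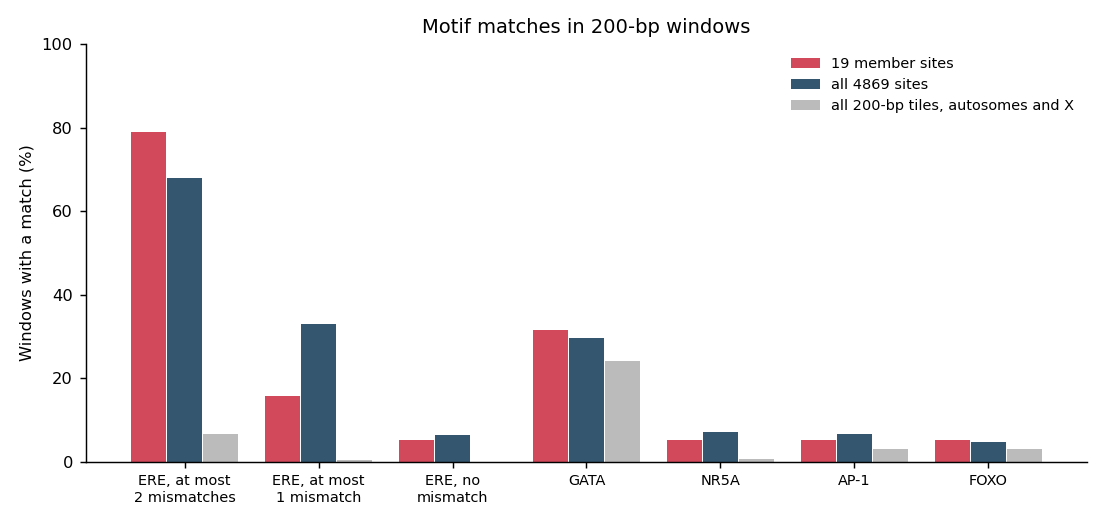
Percentage of 200-bp windows with a match to each motif, for the 19 sites near basement membrane and integrin genes (red), all 4869 sites (blue) and all 200-bp tiles of the autosomes and X (grey). The GATA, NR5A, AP-1 and FOXO motifs were matched exactly. An ERE with at most 2 mismatches was in 78.9% of the 19 sites and 6.68% of tiles, while elements with at most 1 mismatch were in 15.8% of the 19 sites and 33.0% of all sites.

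The number of genes with a site was read against genes of the same length, because a long gene has more chromatin in which a site can fall. The 34 genes were 10.8 to 640 kb long, with a median of 113 kb, against a median of 17.4 kb for all protein-coding genes. A site in the body or within 50 kb was found for 10 of 34 (29.4%), for 27.5% of all protein-coding genes, and for 38.1% of genes of the same length deciles, weighted by how many of the 34 fell in each. A site within the gene body itself was found for 8 of 34 (23.5%), for 8.83% of all genes and for 24.4% of genes of the same length deciles. For a site in the body the genes were above all genes and near genes of like length, and for the wider interval they were near all genes and below genes of like length. The reading of the wider interval depended on the rule: with Input 1 alone as the denominator 41.2% of the 34 genes had a site, against 27.6% of all genes and 37.9% of genes of like length. At 3-fold the shares were 52.9%, 37.5% and 51.7%, and at 8-fold 17.6%, 11.5% and 16.5%. With 20 kb on each side they were 29.4%, 17.4% and 30.6%. The 34 genes stayed below genes of like length with Input 2 alone (32.4% against 42.1%) and in all 3 ChIP libraries (20.6% against 28.6%). The same held with 100 kb on each side (35.3% against 49.0%) and without any 1 ChIP library. The density was 2.57 sites per Mb in their intervals, 2.43 per Mb over all protein-coding gene intervals and 1.90 per Mb over the autosomes and X. Of the 34 genes, 18 fell in the longest decile, where 4 had a site, and 9 fell in the next, where 5 had one. The 34 intervals merge into 30, since 8 genes share chromatin in pairs (Col4a1 and Col4a2, Col4a3 and Col4a4, Col4a5 and Col4a6, Itga1 and Itga2), so these genes are not independent.

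**Figure D2:**
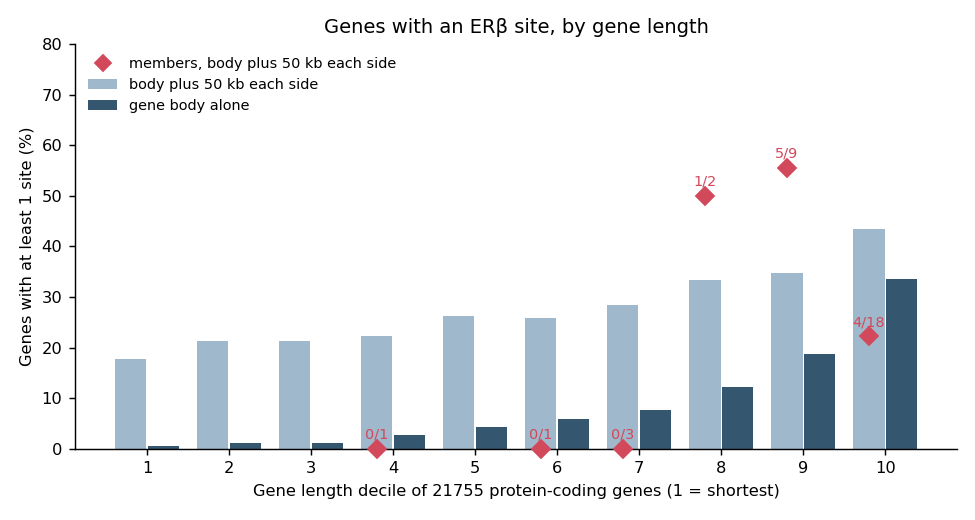
Percentage of genes with at least 1 site (vertical axis) by gene length decile of the 21755 protein-coding genes, for the body plus 50 kb on each side (light bars) and for the body alone (dark bars). Red diamonds give the share of the 34 genes with a site in the wider interval, with the counts beside them; the share rose with length over all genes, from 17.7% in decile 1 to 43.4% in decile 10, and 4 of the 18 in decile 10 had a site.

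At the 19 sites together, mean signal at the centre was 5.17, 6.58 and 5.66 in ERβ ChIP 1, 2 and 3 and 0.666 and 0.558 in Input 1 and 2. The signal is in the normalised coverage units of the deposited tracks, whose genome means were 0.362 to 0.370. At 1000 bp toward higher chromosome coordinates the ChIP libraries were at 0.423 to 0.604, where the inputs were at 0.635 and 0.654. At 1210 bp ERβ ChIP 1, 2 and 3 were at 0.634, 0.677 and 0.807, and the inputs at 0.649 and 0.608. The median of the mean fold over input was 7.06 at these sites, with a range of 3.50 to 23.7, against 6.22 at all sites. In 13 of the 19 (68.4%) all 3 ChIP libraries exceeded 4-fold, against 65.8% of all sites. ERβ ChIP 2 exceeded 4-fold at 19 of these sites, and ERβ ChIP 1 and 3 at 16 each. Over all sites, 78.7%, 95.7% and 91.4% exceeded it in ERβ ChIP 1, 2 and 3. At each of the 19 sites the lowest ChIP library was above both inputs, by 1.15 times at the weakest and 17.3 times at the strongest. Since the rule chose these windows for their fold, these values describe the sites and are not a test.

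**Figure D3:**
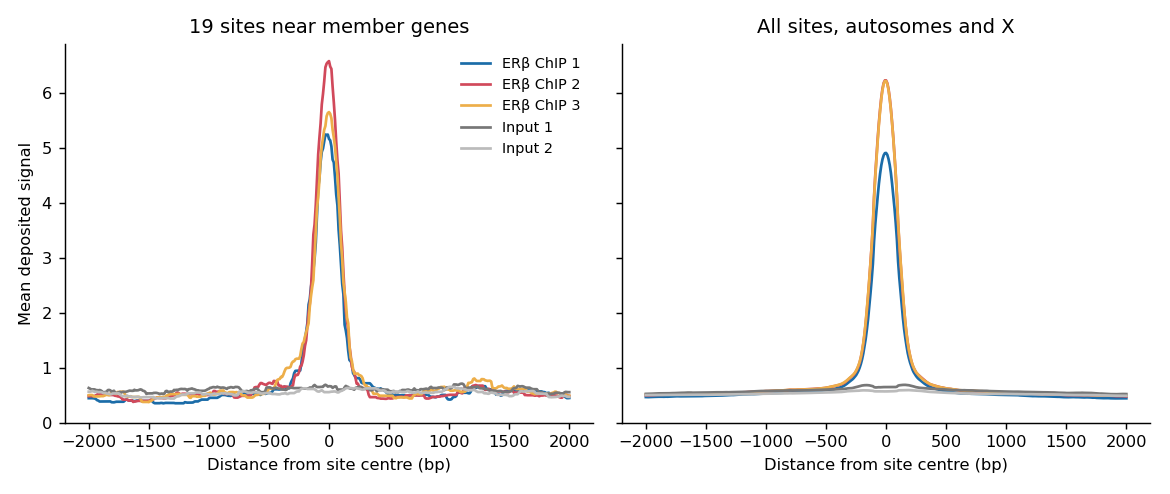
Mean deposited signal (vertical axis) against distance from the site centre in bp, for the 19 sites (left) and all sites (right), with 1 line per library. The ChIP lines peak at 5.17 to 6.58 at the centre of the 19 sites, and the inputs stay at 0.558 and 0.666 there.

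The ChIP signal of a library left out of the call is a reading that the call did not use. Its fold still has the same 2 inputs as denominator, so a window with low inputs is raised in both. Sites were called from 2 ChIP libraries, and the fold was read in the remaining one. The median was 6.24 in ERβ ChIP 1 over 16 sites, 8.54 in ERβ ChIP 2 over 13 sites and 7.02 in ERβ ChIP 3 over 16 sites. The mean of these medians was 7.27 ± 1.17 (SD, n = 3 libraries), and 7.05 ± 1.18 for all sites, a difference smaller than the spread between libraries. In each library 13 of these sites exceeded 4-fold. These are the 13 sites over 4-fold in all 3 ChIP libraries, so this is 1 count and not 3 separate readings. Over all sites read in the same way, 74.42%, 93.45% and 87.63% exceeded 4-fold in ERβ ChIP 1, 2 and 3. The lowest held-out value was 1.38, at the Lama2 site in ERβ ChIP 3. The track names set ERβ ChIP 1 and Input 1 apart from ERβ ChIP 2, ERβ ChIP 3 and Input 2, so folds were also formed within each of these name sets: 15 sites exceeded 4-fold in the former, 16 in the latter and 14 in both.

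None of the 19 sites fell in an exon of a protein-coding transcript or in its promoter, taken from 1 kb before to 100 bp after the transcript start, 16 were intronic (84.2%) and 3 intergenic (15.8%). Of all sites, 5.32% were in promoters, 4.44% in exons, 45.5% in introns and 44.7% between genes. Introns made up 68.2% of the 200-bp tiles in the intervals examined. Within bodies of the 34 genes lay 10 sites. The other 9 lay outside: 6 in introns of neighbouring genes (Nup214, Myl4, Cables2, Aif1l and Mocs2) and 3 between genes. The nearest protein-coding transcript start belonged to a basement membrane or integrin gene for 10 of the 19 sites, and the median distance to the nearest such start of any gene was 13.1 kb. A site in the interval of a gene is thus not assigned to that gene here.

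The type IV collagen genes encode the chains of the network layer, and none of the 6 had a site. They are long genes, 114 to 309 kb, and 43.4% of all genes of their length decile had a site. Col4a3 and Col4a4, whose chains form the network of the kidney glomerulus among other places, lie head to head, and their strongest window reached 3.78-, 1.99- and 3.34-fold in ERβ ChIP 1, 2 and 3. For Col4a1 and Col4a2, the chains found in nearly all basement membranes, the shared strongest window reached 1.34-, 3.07- and 3.03-fold. Col4a5 and Col4a6, on the X chromosome, peaked at 2.49-, 1.19- and 2.54-fold. Each pair of genes had 1 low library, ERβ ChIP 1 for Col4a1 and Col4a2 and ERβ ChIP 2 for the others.

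Laminins are trimers of an alpha, a beta and a gamma chain, and 5 of the 10 laminin genes had a site, with 8 sites between them; 38.6% of genes of their length deciles had one. The sites were at Lamc3, Lamb1, Lama5, Lama3 and Lama2. Lama1, Lama4, Lamb2, Lamb3 and Lamc1 had none.

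The strongest site in a laminin interval was in that of Lamc3, which encodes the gamma 3 chain. It lay 49.4 kb past the end of Lamc3, in intron 12 of 35 of Nup214, a nuclear pore gene (chr2:31995841-31996040), and the start nearest to it was that of Nup214. Signal there was 6.41, 7.13 and 8.71 in ERβ ChIP 1, 2 and 3 and 0.565 and 0.316 in Input 1 and 2. The fold was 16.8 ± 2.67 (SD, n = 3), and the 3 ChIP libraries stood well clear of both inputs. The other Lamc3 site, in intron 2 of 5 of Aif1l and 8.25 kb past the Lamc3 end (chr2:31954691-31954890), had 3.02, 3.04 and 2.75 against 0.380 and 0.451. Its fold was 7.06 ± 0.392, among the smallest spreads between libraries of the 19. No site lay inside the Lamc3 body.

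Lamb1, which encodes the beta 1 chain shared by many laminins, had a site in intron 2 of 32, 3.28 kb from the gene start (chr12:31268411-31268610). Signal was 3.75, 5.12 and 7.88 in ERβ ChIP 1, 2 and 3 and 0.900 and 0.290 in Input 1 and 2, for a fold of 9.38 ± 3.53. The inputs differed from each other here by more than at most sites, and the fold was 4.17 within the name set of ERβ ChIP 1 and Input 1 and 17.7 within the other. A further window of Lamb1 (chr12:31287381-31287580) fell just under the rule, at 3.55-, 3.83- and 6.51-fold.

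Lama5 encodes the alpha 5 chain, common in adult epithelial basement membranes, and had 3 sites. In intron 2 of 78 (chr2:180215051-180215250), signal was 3.15, 3.71 and 3.33 in ERβ ChIP 1, 2 and 3 and 0.627 and 0.360 in Input 1 and 2, and the fold was 6.88 ± 0.58. In intron 16 (chr2:180197731-180197930), the site with the NR5A and FOXO matches, signal was 3.69, 4.21 and 3.87 against 0.528 and 0.854, and the fold was 5.67 ± 0.382. In both introns the ChIP libraries were close to one another. The protein-coding start nearest to the intron 16 site was that of Adrm1, 26.3 kb away. The remaining site, 45.2 kb upstream in intron 1 of 9 of Cables2 (chr2:180270931-180271130), had 4.12, 5.37 and 5.20 against 0.697 and 0.559, and a fold of 7.79 ± 1.08.

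The Lama3 and Lama2 sites were weaker and depended on which libraries were read. Lama3, whose chain is part of the laminin of epidermal and other epithelial anchoring structures, had a site in intron 32 of 74 (chr18:12489321-12489520) with signal of 1.83, 4.13 and 2.13 in ERβ ChIP 1, 2 and 3 and 0.567 and 0.480 in the inputs. Its fold was 5.15 ± 2.39, with ERβ ChIP 1 under the rule at 3.50. Lama2, whose chain is the main alpha chain of muscle laminin, had a site 10.1 kb upstream of its start (chr10:27629801-27630000) with signal of 2.34, 2.55 and 0.737, against 0.642 and 0.430. ERβ ChIP 3 was 1.38-fold there, near the inputs, while ERβ ChIP 1 and 2 were 4.37- and 4.75-fold. This was the only one of the 19 sites with a fully matching ERE, and it had the lowest mean fold, 3.50 ± 1.85.

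Among the 4 genes of linkers and proteoglycans, Hspg2 alone had a site, against 33.2% of genes of their length deciles. Hspg2 encodes perlecan, and its site lay in intron 1 of 96, 16.2 kb from the gene start (chr4:137484831-137485030). Signal was 5.48, 6.32 and 8.75 in ERβ ChIP 1, 2 and 3, and 1.10 and 1.09 in Input 1 and 2, the highest input level at any of the 19 sites. The fold was 6.27 ± 1.56, and it exceeded 4 in each library. Nid1 and Nid2, the nidogens, had their strongest windows at 2.06 and 2.31 by the second-highest library, and Agrn, for agrin, at 2.18.

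Integrin alpha chains set which matrix protein a receptor binds, and 3 of the 8 alpha genes had a site, with 6 sites, against 37.2% of genes of their length deciles. Itga9 had the strongest site of all 34 genes. The alpha 9 chain pairs with beta 1 and binds tenascin C and other matrix ligands. The site lay in intron 23 of 27, 261 kb from the gene start (chr9:118867191-118867390). The protein-coding start nearest to it was that of Ctdspl, 59.2 kb away. Signal was 15.4, 22.4 and 14.1 in ERβ ChIP 1, 2 and 3 and 0.816 and 0.643 in Input 1 and 2. The fold was 23.7 ± 6.09, with folds of 21.1, 30.7 and 19.4, so that the lowest ChIP library was 17.3 times the higher input.

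Itga6, whose chain is a laminin receptor paired with beta 1 or beta 4, had 3 sites spread over its interval. The upstream site, 18.3 kb before the annotated start and inside the lincRNA gene Platr26 (chr2:71727231-71727430), had signal of 7.84, 6.35 and 5.60 in ERβ ChIP 1, 2 and 3 and 0.828 and 0.700 in the inputs. Its fold was 8.63 ± 1.49 and its best element had 3 mismatches. A site 0.356 kb before the annotated start (chr2:71745161-71745360) had 3.71, 5.56 and 5.12 against 0.774 and 0.438, for a fold of 7.92 ± 1.60. That start belongs to a transcript that is not protein-coding, and the site lay 41.7 kb upstream of the nearest protein-coding start of Itga6, within the lincRNA gene Gm13647. In intron 21 of 25 (chr2:71843521-71843720), signal was 2.55, 2.20 and 2.38 against 0.300 and 0.570, and the fold was 5.47 ± 0.408. All 3 sites exceeded 4-fold in each ChIP library.

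Itga2, for the collagen receptor chain alpha 2, had 2 weak sites. In intron 19 of 29 (chr13:114856191-114856390) signal was 1.92, 2.26 and 3.99 in ERβ ChIP 1, 2 and 3 and 0.370 and 0.659 in the inputs, with ERβ ChIP 1 under the rule at 3.73-fold. The protein-coding start nearest to this site was that of Mocs2, 37.4 kb away. The other site (chr13:114821721-114821920), 11.3 kb past the gene in intron 3 of 5 of Mocs2, reached 4.24-, 4.49- and 2.13-fold and was the highest of the 3 values nearest the rule on its inner side. Neither site exceeded 4-fold in all libraries. Itgav, for the vitronectin receptor alpha chain, Itga1, Itga3, Itga7 and Itga8 had no site. Their strongest windows were between 1.93 (Itga7) and 3.00 (Itga8) by the second-highest library.

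Of the 6 integrin beta genes, Itgb3 alone had sites, 4 of them, the most of any of the 34 genes; 36.3% of genes of these length deciles had a site. The beta 3 chain pairs with alpha v in the vitronectin receptor and with the platelet alpha IIb chain. The main site lay in intron 1 of 14, 10.8 kb from the start (chr11:104618721-104618920). Signal was 10.6, 9.68 and 8.58 in ERβ ChIP 1, 2 and 3 and 0.700 and 0.770 in Input 1 and 2, for a fold of 13.1 ± 1.39. The lowest ChIP library there was 11.1 times the higher input. A weaker site in intron 2 (chr11:104625881-104626080) had 3.21, 3.22 and 2.07 against 0.805 and 0.730, and ERβ ChIP 3 was under the rule at 2.70-fold.

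The 2 other Itgb3 sites lay upstream, in Myl4, which encodes an embryonic and atrial myosin light chain. At 15.4 kb upstream (chr11:104592451-104592650) signal was 5.01, 7.87 and 3.94 in ERβ ChIP 1, 2 and 3 against 0.988 and 0.450, and the fold was 7.80 ± 2.83. At 49.8 kb upstream (chr11:104558131-104558330) signal was 1.15, 3.65 and 3.54 against 0.280 and 0.360. ERβ ChIP 1 stood apart there, at 3.13-fold, from ERβ ChIP 2 and 3 at 9.92- and 9.63-fold. That site also lay just inside the 50-kb limit.

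**Figure D4:**
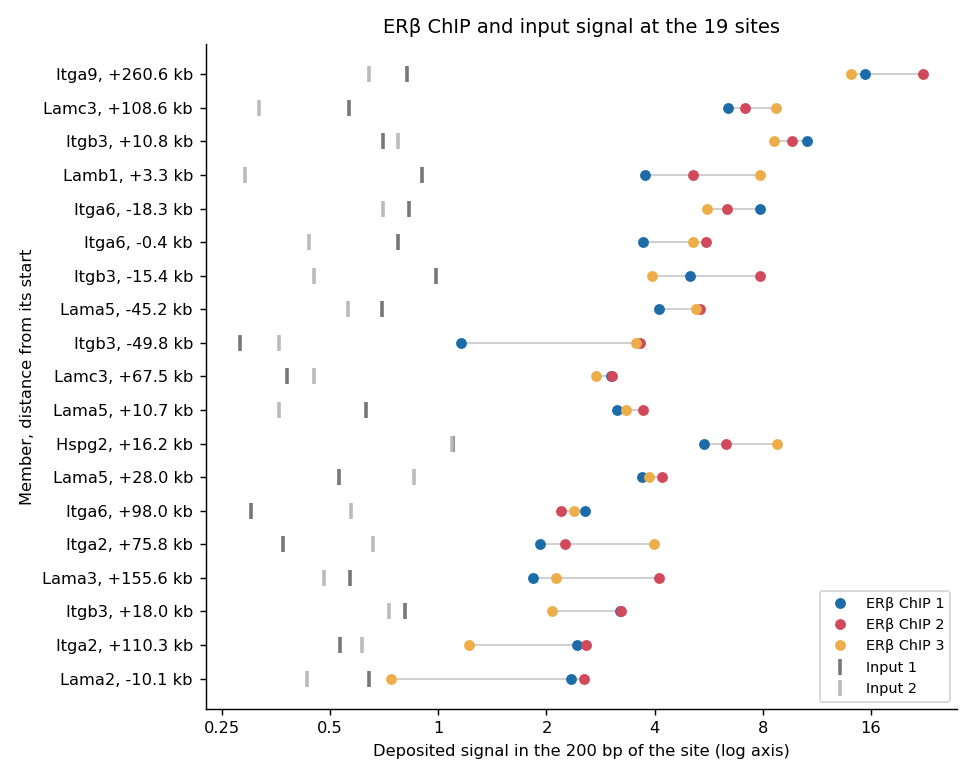
Deposited signal in the 200 bp of each of the 19 sites on a log axis, with a coloured point for each ERβ ChIP library and a grey tick for each input; rows are ordered by mean fold and labelled by gene and distance in kb from its annotated start. All ChIP points lie to the right of both inputs, with ERβ ChIP 3 at the Lama2 site the closest, at 0.737 against 0.642.

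The 24 genes without a site had strongest windows of 1.88 (Lamb2) to 3.48 (Lamb3) by the second-highest ChIP library, with a median of 2.47. Of these, 8 reached over 3. The values just outside the rule were 3.83 at the further Lamb1 window, 3.48 at Lamb3 (2.83, 4.68 and 3.48 in ERβ ChIP 1, 2 and 3) and 3.38 at Itgb5 (2.27, 3.38 and 3.39). Those just inside were 4.24 at Itga2, 4.19 at Lama3 and 4.18 at Itgb3. The Lama3 value is of a window that overlaps the site described above, where the second-highest library was at 4.06. Read singly, libraries on both sides of the line overlapped: Lamb3, which encodes a chain of the same epithelial laminin as Lama3, exceeded 4-fold in ERβ ChIP 2. Itgb1, for the beta chain shared by most of the integrins that bind basement membrane, was at 2.31.

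**Figure D5:**
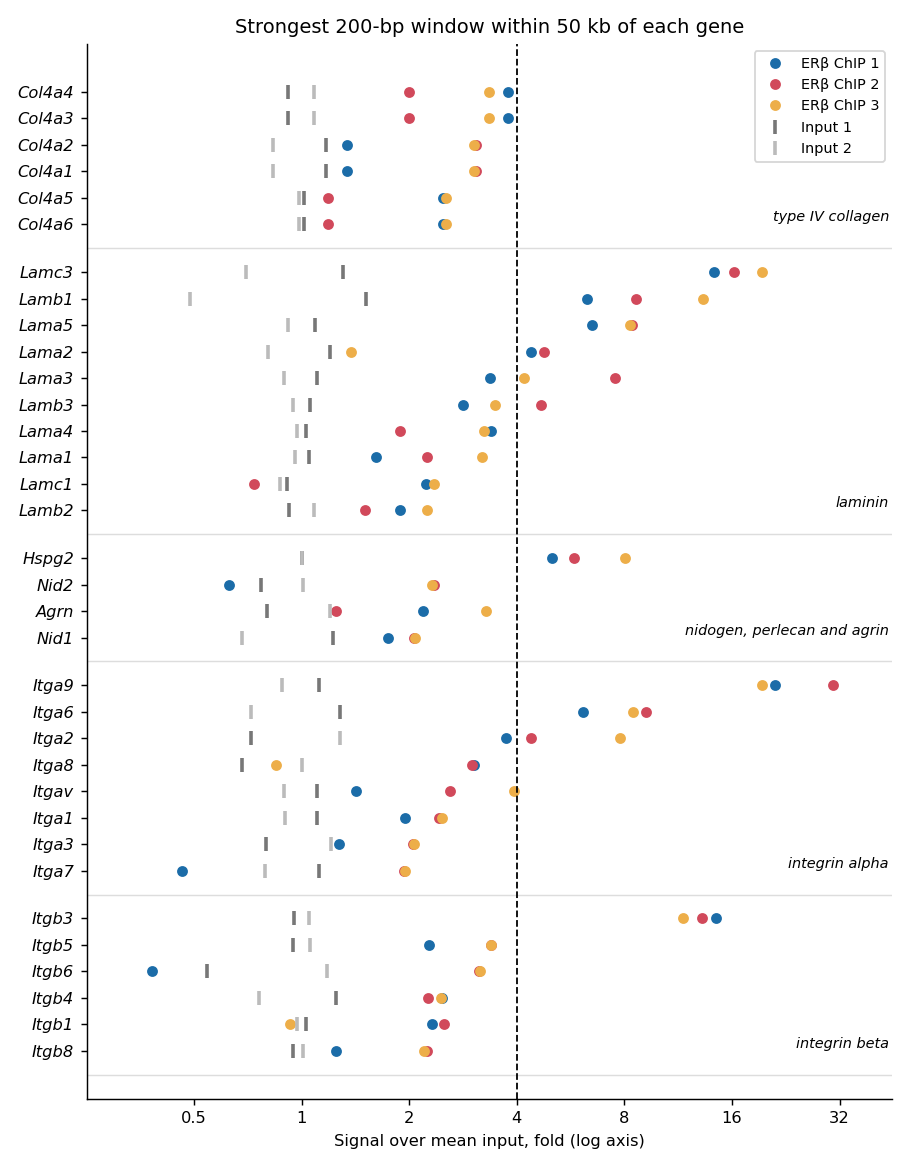
Fold over the mean input (log axis) of the strongest 200-bp window in each of the 34 gene intervals, chosen by the second-highest ChIP library and grouped by class, with coloured points for the 3 ERβ ChIP libraries and grey ticks for the inputs. The dashed line is the 4-fold rule; 10 genes have at least 2 ChIP points beyond it, and the 24 others have second-highest points between 1.88 and 3.48.

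To test ChIP against input with the spread between libraries, limma was applied to log2(signal + 0.5) in 1-kb windows across the autosomes and X, with Benjamini-Hochberg adjustment over all of them. In the gene intervals 9 of 7208 windows were higher in ChIP (0.125%), against 0.0957% of all windows tested, and 0 were lower, against 0.00267% of all windows. At an unadjusted p under 0.05, 67 windows in the gene intervals were higher (0.929%, against 1.90% of all) and 496 lower (6.88%, against 3.33%). The median log2 difference of windows in the gene intervals was -0.06, and -0.01 for all windows. Median GC content was 43.7% in these windows and 41.6% in all, and with GC content removed 4.80% of these windows were lower at an unadjusted p under 0.05, against 2.74% of all. These windows overlap the sites that the rule picked from the same libraries, so they add an error estimate and are not independent support.

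The called window at Itga9 had signal of 4.83, 6.98 and 4.62 in ERβ ChIP 1, 2 and 3 and 0.584 and 0.598 in the inputs, a log2 difference of 2.43 (SE 0.24, limma adjusted p = 5.24e-08). At the main Itgb3 site the log2 difference was 1.64 (SE 0.20, limma adjusted p = 4.67e-06), and at Lamb1 it was 1.37 (SE 0.20, limma adjusted p = 0.000145). The remaining called windows were at Itga6 (1.25 at the annotated start and 1.22 upstream), near Lamc3 (1.12 in Aif1l, and 1.10 and 0.86 in adjoining windows in Nup214) and at the Itgb3 site in Myl4 (1.05). Their limma adjusted p ran from 0.000169 to 0.0490. Every called window but the Nup214 one at 0.86 held a site centre, and 11 of the 19 sites lay in windows that did not pass. Without Input 2, 4 of the 9 passed, Lamb1 not among them (limma adjusted p = 0.0774), and without Input 1 or ERβ ChIP 2, 6 each. When windows with a mean signal under 0.1 were kept in the fit, 2 of the 9 passed, the main Itgb3 window and the Itga6 window at the annotated start. The Itga9 window then had a limma adjusted p of 0.0532 and the Lamb1 window 0.697.

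At annotated gene starts, the window from 1 kb upstream to 100 bp downstream was tested in the same way over 21755 genes. No promoter of the 34 genes passed limma at an adjusted p of 0.05, with 0% of all promoters higher and 0.0046% lower (1 promoter). The highest was Itga6, at 2.02, 1.84 and 2.08 in ERβ ChIP 1, 2 and 3 and 0.527 and 0.549 in the inputs. Its log2 difference was 1.26 (SE 0.15, limma adjusted p = 0.153), and it passed when promoters with a mean signal under 0.1 were left out (limma adjusted p = 0.0495) and when GC content was removed (limma adjusted p = 0.000138). It passed in no other setting at this start. The limma adjusted p was 0.0562 without ERβ ChIP 3, 0.561 with the name set as a term and 0.704 without ERβ ChIP 2. At the start of the principal protein-coding transcript of Itga6, 41.4 kb downstream, the log2 difference was 0.05 (limma adjusted p = 0.919). At an unadjusted p under 0.05, 1 of the 34 was higher, Itga6, and 2 were lower, Itga3 and Itgb4, each at -0.38 with a limma adjusted p of 0.515; the figures for all genes were 1.64% and 7.97%. The median log2 difference was -0.12 both for the 34 and for all genes.

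Further genes of the same pathways were taken as a list chosen by name, with earlier results of these data known. Of 45 such genes, 18 had a site within 50 kb (40.0%), against 27.5% of all genes and 34.1% of genes of the same length deciles. By group, 5 of 12 further laminin and integrin genes had one (41.7%, against 30.3% of genes of like length). Of other basement membrane and matrix genes 9 of 21 did (42.9%, against 36.8%), and of genes of integrin adaptors 4 of 12 (33.3%, against 33.3%). Genes with at least 3 sites were Smoc2 (4), Smoc1 (3), Itgal (3) and Fermt2 (3). Smoc2 encodes a matricellular protein of basement membranes, and its strongest site (chr17:14439891-14440090), outside the gene body, was 33.6 ± 6.71-fold. Fermt2 encodes kindlin-2, which binds integrin beta tails, and its strongest site (chr14:45453261-45453460), also outside the body, was 26.3 ± 2.29-fold. Both had a higher mean fold than the Itga9 site, the highest among the 34 at 23.7 ± 6.09. For Fermt2 the difference was within the spread of the Itga9 libraries. Mean folds above that of Itga9 were also found for Fras1 (32.51 ± 4.38) and Fbln2 (24.15 ± 3.72), each with 1 site.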

How the data were processed

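ERβ ChIP-seq was analysed in 3 ERβ ChIP and 2 input samples of C57BL/6J mouse ovary. Per the study's methods, reads were aligned to mm10 with STAR (unique reads kept) and processed with HOMER. The deposited files are normalised coverage signal tracks, made by the authors (total summed signal of 928 M to 948 M per library). The tracks hold no read counts, so no counting interval is given; the depth the study states was not used here. Tracks differed in resolution: median segments were 269 bp in Input 1 and 481 to 519 bp in the others.

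Signal was averaged in 10-bp bins. Folds were taken over the mean input in 200-bp windows at 10-bp steps, and windows over 4-fold in at least 2 ChIP libraries were merged within 200 bp; the highest window was the site. Genes and features came from GENCODE M21, sequences from GRCm38.p6. ChIP was compared with input by limma 3.58.1 (R 4.3.3; trended variance, log2(signal + 0.5); 1-kb windows with a mean signal of at least 0.1, all promoters) with Benjamini-Hochberg adjustment over all features. Both steps were tested on simulated data. The genes and lists were chosen with earlier results of these data known. Genes and sites named were the 12 strongest sites, the strongest of each class, those at promoters, the 3 genes with the most sites, the 3 values nearest the rule on each side, called promoters and windows, and listed genes with at least 3 sites; the other sites are given after their values were seen. The ChIP replicates are pools of animals, and the methods do not state whether the inputs are separate pools. In limma the variance of each window or promoter is drawn toward a trend over all of them. The p-values thus rest largely on a spread shared across features and not on that of 1 window alone.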

Additional observations from a re-analysis of the deposited data

How the results depend on the processing

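At 3-fold 18 genes (52.9%, against 37.5% of all genes and 51.7% of genes of like length) and 32 sites were called. At 8-fold there were 6 genes (17.6%, against 11.5% of all genes and 16.5% of genes of like length) and 8 sites. The 18 of 45 further genes became 8 of 45 at 8-fold, while the share of all genes fell from 27.5% to 11.5%. In the gene body alone, 10 sites and 7 of the 45 further genes were counted, against 8.83% of all genes. Without 1 ChIP library at a time, 7 to 9 genes (20.6% to 26.5%), 13 to 16 sites and 13 to 17 of the 45 further genes were called. Of all genes, 21.1% to 25.3% then had a site. Of genes of like length to the 34, 30.0% to 35.2% did. The ERE share was 59.4% at 3-fold, 87.5% at 8-fold, 69.6% with Input 1 alone, 84.6% in all 3 libraries, 84.2% in 400 bp, 15.8% with at most 1 mismatch, and 81.2% to 84.6% without 1 library. The intron share was 75.0% at 8-fold, 82.4% on fixed tiles, 73.7% with all annotated transcripts, and 81.2% to 87.5% without 1 library. The held-out fold was 12.8 at 8-fold and 9.09 with Input 2 alone. Promoters of the 34 genes higher in ChIP numbered 1 with the signal filter, against 16 of 21064 promoters in all, and 1 with GC content removed, against 107 of 21755, both Itga6. Called 1-kb windows numbered 5 without the signal filter (0.068%, against 0.0262% of all windows), of which 2 were among the 9 above. With GC content removed there were 17 (0.236%, against 0.148% of all windows). Without 1 library there were 4 to 10, with 4 without Input 2 (0.0555%, against 0.0413% of all windows). Causes were not tested.

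Replicate numbers do not mark a shared pool in the labels, and 2 numbers occur in both groups. With the replicate block, 11 windows in the gene intervals were higher (0.153%, against 0.141% of all windows) and 20 lower (0.278%, against 0.132%), and 0 of their promoters passed. Deviations of same-numbered libraries correlated at 0.0149 across windows. With the name set as a term, 8 of these windows were higher (0.111%, against 0.0924% of all windows).

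The principal-transcript promoter was added after the data were seen. The spread between libraries within a group was 0.178 (ChIP) and 0.115 (input) log2 units per window. All folds rest on 2 inputs. Of the 19 sites, 18 were still called with Input 1 alone and 17 with Input 2 alone. Some folds depended on the input read: the Lamb1 site was 6.20-fold over Input 1 alone and 15.2-fold over Input 2 alone. The main Itgb3 site was 13.75- and 12.5-fold. Without read counts, sites and windows under the rule were not detected by it and are not shown to be unbound.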
